A study of Mus musculus with 8 samples.

Results

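Homeostatic microglia genes are genes that resting microglia, the macrophages resident in brain tissue, express at high levels and that are commonly used to tell them from other macrophages. The 10 genes followed here were P2ry12, P2ry13, Tmem119, Gpr34, Siglech, Sall1, Olfml3, Fcrls, Selplg and Aif1. They were found on the arrays by symbol. A gene was matched to the probe sets annotated with its symbol alone, and where there were several, as for Selplg with 2, the probe set with the highest mean over the 8 arrays was used. All 10 were measured, among 22180 named genes, and all 10 passed the filter on dim genes, a mean above 4.38 on the log2 scale, that left 15526 genes for testing. The arrays were hybridised with total RNA of whole medulloblastomas, tumours of the cerebellum, harvested at postnatal day 15.

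All mice carried Math1-Cre and SmoM2, an activated Smoothened that switches on Sonic hedgehog signalling where Cre has acted. The 4 Bcl2l1-deleted tumours came from Math1-Cre/SmoM2/Bcl2l1 f/f mice, whose floxed Bcl2l1, which encodes BCL-xL, an inhibitor of apoptosis, is removed by the same Cre. The 4 control tumours came from Math1-Cre/SmoM2 mice, and the labels name no drug or other agent. Math1 (Atoh1) drives Cre in granule neuron precursors and the tumours that arise from them, not in microglia, so the comparison asks how microglia genes in the tumour tissue differ when the tumour cells lack Bcl2l1. In whole tissue, a change in the number of cells of a type and a change in RNA per cell cannot be told apart.

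Values are log2 RMA expression values, in which a difference of 1 is a doubling. Bcl2l1 lay between 5.32 and 5.69 on the Bcl2l1-deleted arrays and between 6.57 and 6.98 on the controls (limma adjusted p = 0.00509), which matches the labels. The granule progenitor genes Atoh1 and Gli1 were bright on all arrays, at 10.94 or above and 8.06 or above. Control replicate 2 stood apart, with correlations of 0.881 to 0.925 with the other 7 arrays over all probe sets, where the other pairs reached 0.956 to 0.981. The median of 1394 olfactory and vomeronasal receptor genes, which report mostly background in brain, was 3.60 on that array, 2.94 to 3.09 on the other controls and 2.79 to 2.92 after Bcl2l1 deletion (exact permutation test, two-sided, p = 0.0286). That is the smallest p that the 70 regroupings of the arrays allow. Ttr, a gene of the choroid plexus, read 5.70 to 6.85 after Bcl2l1 deletion and 10.95 to 11.48 in controls, without overlap, and its part in the members' values was not tested. The fitted change of the median tested gene was 0.17, so the changes of the members are also given relative to that gene.

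Microglia enter the brain early in development from the yolk sac and keep their identity through signals from the tissue, chiefly ligands of the receptor CSF1R and TGF-beta. In their resting state they survey the tissue with fine processes, steered by receptors for nucleotides that damaged or active cells release. When they take up debris or become inflamed, they are known to lower the homeostatic genes and raise a phagocytic set.

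Of the 10 members, 4 rose (P2ry13, Gpr34, Fcrls and Aif1), none fell and 6 did not pass an adjusted p of 0.05 (limma, Benjamini-Hochberg adjustment over all 15526 genes), where 4.93% of all tested genes rose and 1.60% fell. At an unadjusted p under 0.05, 9 members passed, all higher, against 30.5% of all tested genes in either direction. On 7 of the 10 every Bcl2l1-deleted array lay above every control array, as it did for 19.0% of all tested genes, and on 0 members did they all lie below, as they did for 4.46%. The median change of the members relative to the median tested gene was 0.75, and 9 of 10 relative changes were positive. Siglech was the exception, with a relative change of -0.48. The count of 4 depended on single arrays. It was 0, 0, 1 and 1 when Bcl2l1-deleted replicate 1, 2, 3 or 4 was left out, 6, 4, 2 and 1 when control replicate 1, 2, 3 or 4 was left out, and 1 (Aif1) when the receptor median was a covariate. Of all calls, 765 were higher and 248 lower, a split that became 390 and 699 with arrays centred on the median tested gene and 1337 and 171 with arrays centred on the median probe set, where 3 and 5 members rose.

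**Figure D1:**
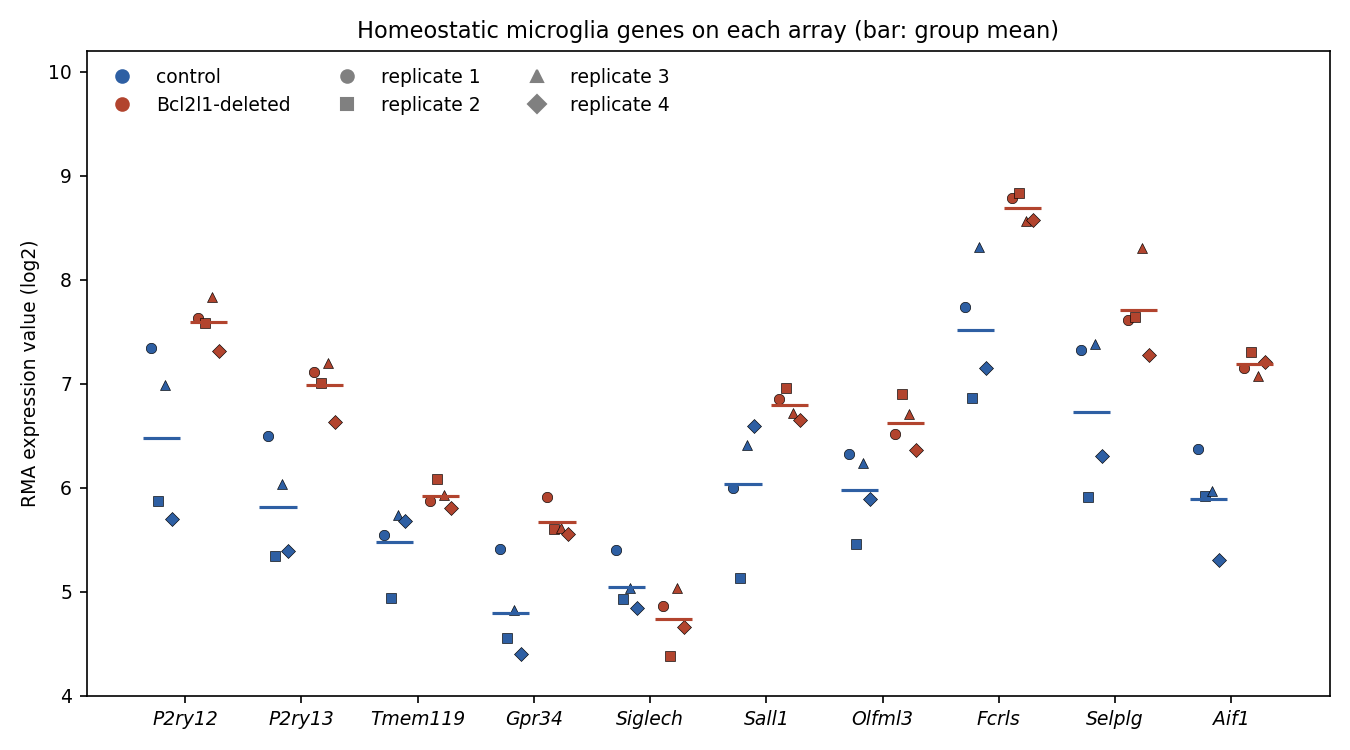
Log2 RMA expression value (vertical axis) of the 10 homeostatic microglia genes on each array, control in blue and Bcl2l1-deleted in red, with the replicate given by the symbol and the group mean by a bar. For Aif1 the Bcl2l1-deleted arrays lie between 7.08 and 7.31 and the controls between 5.30 and 6.37, while for Siglech the groups overlap and the control mean is the higher.

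Promoter windows were available from RefSeq (GRCm38.p6) for 7 of the 10 members; Tmem119, Gpr34 and Selplg had no entry. A window covers the bases around 1 annotated start site, and of each the bases upstream of the gene's outermost start are shown for the neighbours P2ry12 and P2ry13, for Aif1, with the smallest p, and for Siglech, the member of opposite sign. Capitals mark matches, on either strand, to letter patterns of transcription factors of macrophages: GAGGAAG for PU.1, and GAAA followed by any 2 bases and GAAA for IRF factors.
P2ry12, chr3:59262986-59263235, minus strand: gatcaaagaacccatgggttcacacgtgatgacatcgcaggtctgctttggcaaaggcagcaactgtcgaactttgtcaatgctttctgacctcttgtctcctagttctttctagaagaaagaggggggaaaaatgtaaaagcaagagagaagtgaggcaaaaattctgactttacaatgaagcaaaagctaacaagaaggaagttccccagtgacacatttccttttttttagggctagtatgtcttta
P2ry13, chr3:59210883-59211132, minus strand: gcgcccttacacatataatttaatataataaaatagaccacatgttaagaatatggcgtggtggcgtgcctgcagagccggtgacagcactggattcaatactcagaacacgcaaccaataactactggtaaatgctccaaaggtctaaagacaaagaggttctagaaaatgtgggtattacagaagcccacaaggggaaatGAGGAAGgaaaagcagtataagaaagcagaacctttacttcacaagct
Aif1, chr17:35176084-35176302, minus strand: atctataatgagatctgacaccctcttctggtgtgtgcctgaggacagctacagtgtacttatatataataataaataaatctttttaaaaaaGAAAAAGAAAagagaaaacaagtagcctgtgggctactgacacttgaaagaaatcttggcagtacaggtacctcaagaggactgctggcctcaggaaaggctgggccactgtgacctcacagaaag
Siglech, chr7:55767934-55768153, plus strand: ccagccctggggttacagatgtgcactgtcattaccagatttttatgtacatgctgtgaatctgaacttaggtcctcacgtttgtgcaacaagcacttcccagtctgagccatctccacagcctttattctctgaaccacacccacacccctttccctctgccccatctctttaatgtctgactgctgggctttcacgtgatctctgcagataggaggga

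The pattern GAGGAAG was found in the 250 bases before the start site of P2ry13, where it began 48 bases before that site, and of Fcrls, whose window lies mostly inside the gene. That is 2 of 9 member windows (Sall1 has 3), beside 10.6% of 32851 windows of all genes. The IRF pattern was found in 1 member window, that of Aif1, where it began 157 bases before the window's own start site and 126 bases before the end of the printed stretch, which stops at the gene's outermost start, beside 2.98% of all windows. A MEF2 pattern, CTA followed by any 4 bases and TAG, was in 0 member windows, beside 3.20% of all. The 3 patterns do not overlap one another in the member windows. The windows of P2ry12 and Siglech held none of the 3, which says only that these letters are not in these bases.

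P2ry12, the ADP receptor by which microglia extend processes towards injury, read 7.63, 7.58, 7.83 and 7.32 on Bcl2l1-deleted replicates 1 to 4. On control replicates 1 to 4 it read 7.35, 5.87, 6.98 and 5.69. The controls were spread over more than the Bcl2l1-deleted arrays, and control replicate 1 overlapped them. The fitted change of P2ry12 was 1.12 ± 0.34 (log2 ± SE, 0.94 relative to the median gene) and did not pass (limma adjusted p = 0.0679).

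P2ry13, a related ADP receptor, read 7.11, 7.01, 7.19 and 6.63 on Bcl2l1-deleted replicates 1 to 4 and 6.50, 5.35, 6.03 and 5.39 on control replicates 1 to 4. It had the same order of arrays as P2ry12 in the Bcl2l1-deleted group, but its groups did not overlap. P2ry13 rose by 1.17 ± 0.26 (log2 ± SE, 2.25-fold, limma adjusted p = 0.0314), or by 1.00 relative to the median gene. The call was lost without any 1 of the Bcl2l1-deleted arrays or without control replicate 3 or 4 (adjusted p up to 0.109), and in the fit adjusted for the receptor median (adjusted p = 0.107).

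Gpr34, a receptor for lysophosphatidylserine, a lipid of dying and activated cells, read 5.91, 5.60, 5.61 and 5.55 on Bcl2l1-deleted replicates 1 to 4. On the control arrays it read 5.41, 4.56, 4.82 and 4.40. All Bcl2l1-deleted arrays were above all controls, with Bcl2l1-deleted replicate 1 somewhat apart at the top. Gpr34 rose by 0.87 ± 0.22 (log2 ± SE, 1.83-fold, limma adjusted p = 0.0415), or by 0.70 relative to the median gene. Its call was lost without any 1 of the Bcl2l1-deleted arrays or control replicate 3 or 4 (adjusted p up to 0.138), when arrays were centred on the median tested gene (0.0849) and when the receptor median was a covariate (0.149).

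Among the other surface molecules, Fcrls, an Fc receptor-like scavenger receptor found in mice, read 8.79, 8.83, 8.57 and 8.58 on Bcl2l1-deleted replicates 1 to 4 and 7.74, 6.86, 8.32 and 7.15 on control replicates 1 to 4. The Bcl2l1-deleted arrays were close together and just above control replicate 3. Fcrls rose by 1.18 ± 0.28 (log2 ± SE, 2.26-fold, limma adjusted p = 0.0371), or by 1.00 relative to the median gene, and lost its call without any 1 of the Bcl2l1-deleted arrays or control replicate 4 (adjusted p up to 0.122) and in the fit adjusted for the receptor median (0.142).

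Selplg encodes PSGL-1, the selectin ligand, which microglia share with blood leukocytes. It read 7.61, 7.64, 8.30 and 7.28 on Bcl2l1-deleted replicates 1 to 4 and 7.32, 5.91, 7.38 and 6.30 on control replicates 1 to 4. The groups overlapped, since Bcl2l1-deleted replicate 4 lay below control replicates 1 and 3. The change of Selplg was 0.98 ± 0.34 (log2 ± SE, 0.81 relative, limma adjusted p = 0.0938). Its second, dimmer probe set averaged 5.77 in the Bcl2l1-deleted tumours and 5.45 in the controls, a smaller difference of the same sign.

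Tmem119, a membrane protein by which microglia are told from infiltrating macrophages, read 5.87, 6.08, 5.93 and 5.80 on Bcl2l1-deleted replicates 1 to 4. It read 5.54, 4.94, 5.74 and 5.68 on the controls. The groups did not overlap, but control replicates 3 and 4 were only just below the lowest Bcl2l1-deleted array, and control replicate 2 was far below. The change of Tmem119 was 0.45 ± 0.19 (log2 ± SE, 0.28 relative) and did not pass (limma adjusted p = 0.144).

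Siglech, a sialic acid-binding lectin of microglia and of plasmacytoid dendritic cells, went the other way in sign. It read 4.87, 4.39, 5.03 and 4.66 on Bcl2l1-deleted replicates 1 to 4 and 5.40, 4.93, 5.03 and 4.84 on control replicates 1 to 4. The groups overlapped, with the highest value on control replicate 1 and the lowest on Bcl2l1-deleted replicate 2. The change of Siglech was -0.31 ± 0.19 (log2 ± SE, 95% confidence interval -0.72 to 0.10, limma adjusted p = 0.270), so an increase of the size seen for the 4 called members lay outside its interval. Its mean over all arrays stood at percentile 40.1 of the named genes, the lowest of the 10 members, which reached percentile 83.0 with Fcrls. RMA compresses differences of dim probe sets, so the interval of Siglech may understate a change in RNA. Over the alternative settings its change ran from -0.57 to -0.12.

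Sall1 is the transcription factor that holds microglia in their resting identity, and it is also made by other cells of the developing brain. It read 6.85, 6.96, 6.72 and 6.65 on Bcl2l1-deleted replicates 1 to 4 and 5.998, 5.13, 6.41 and 6.59 on control replicates 1 to 4. Control replicate 4 nearly reached the Bcl2l1-deleted arrays, although P2ry12, Gpr34, Siglech and Aif1 were lowest there. The change of Sall1 was 0.76 ± 0.28 (log2 ± SE, 0.59 relative) and did not pass (limma adjusted p = 0.102).

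Olfml3, a secreted olfactomedin-like protein, read 6.52, 6.90, 6.71 and 6.36 on Bcl2l1-deleted replicates 1 to 4 and 6.32, 5.46, 6.24 and 5.89 on control replicates 1 to 4. The groups were separated only by the small step between Bcl2l1-deleted replicate 4 and control replicate 1. The change of Olfml3 was 0.64 ± 0.21 (log2 ± SE, 0.47 relative, limma adjusted p = 0.0820).

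Aif1, the actin-bundling protein IBA1 that all tissue macrophages share with microglia, had the smallest p of the members. It read 7.15, 7.31, 7.08 and 7.21 on Bcl2l1-deleted replicates 1 to 4 and 6.37, 5.92, 5.96 and 5.30 on control replicates 1 to 4. The groups were far apart relative to their spread, averaging 7.18 ± 0.10 and 5.89 ± 0.44 (SD, n = 4 each). Aif1 rose by 1.29 ± 0.21 (log2 ± SE, 2.45-fold, limma adjusted p = 0.0140), or by 1.12 relative to the median gene, and its p ranked 78 among the 15526 tested genes. In the fits with 1 array left out, its call was lost when that array was Bcl2l1-deleted replicate 1 (adjusted p = 0.0649) or 2 (0.0551) and was kept in the other 6.

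**Figure D2:**
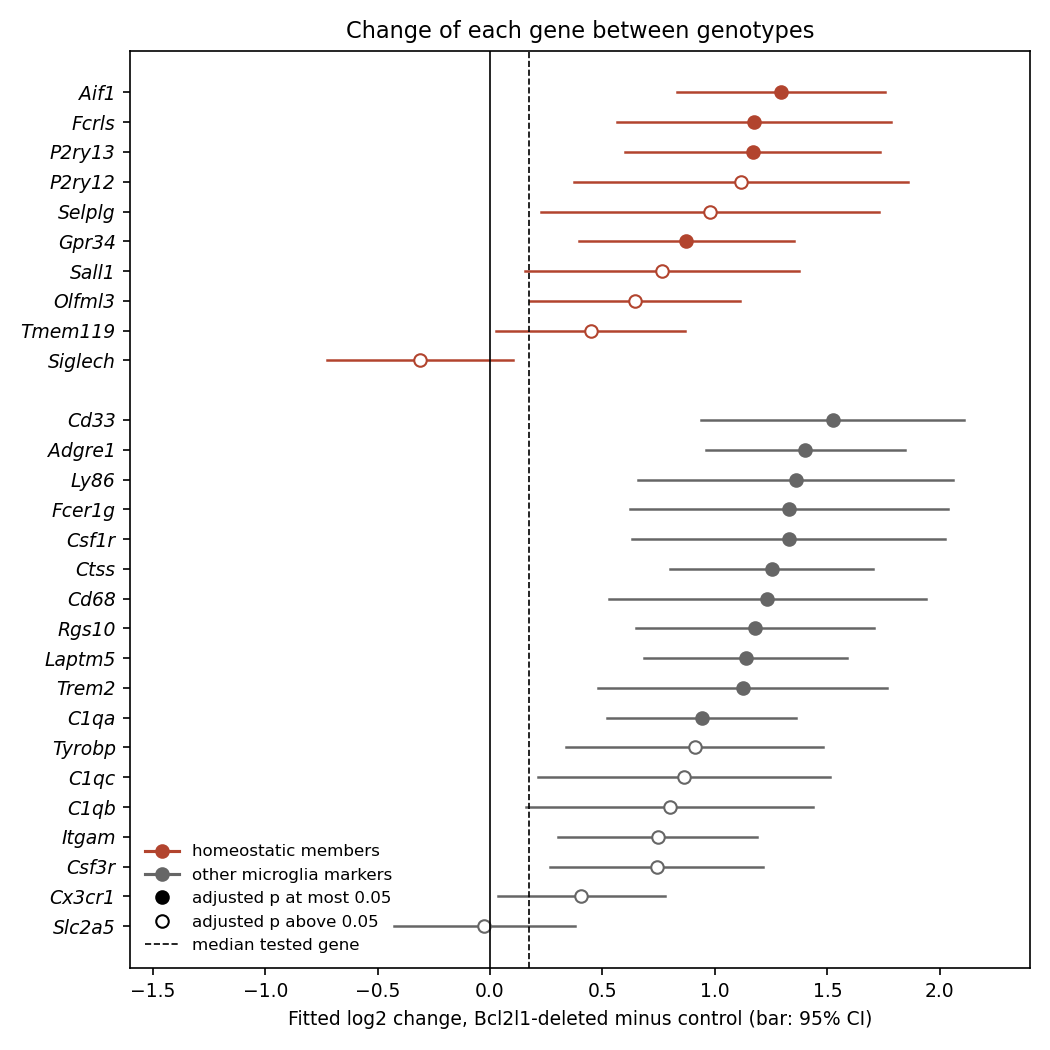
Fitted log2 change of Bcl2l1-deleted minus control tumours (horizontal axis) with its 95% confidence interval for the 10 members (red) and 18 other microglia and brain macrophage markers (grey), filled where the adjusted p was at most 0.05, with the median tested gene as a dashed line. The members run from -0.31 for Siglech to 1.29 for Aif1, and 4 of the 10 and 11 of the 18 are filled.

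Some members lie side by side in the genome. In the RefSeq gene order of GRCm38.p6, P2ry13 and P2ry12 are neighbours on chromosome 3, both within the span of Med12l, and Tmem119 and Selplg are neighbouring coding genes on chromosome 5. P2ry14, a receptor for UDP-glucose in the same group of P2ry genes, rose by 1.47 ± 0.29 (log2 ± SE, limma adjusted p = 0.0218), whereas Med12l averaged 7.96 ± 0.11 after Bcl2l1 deletion and 7.92 ± 0.54 in controls (SD, n = 4 each). Of 5 tested genes listed beside P2ry12 and P2ry13, P2ry14 alone passed, where 4.93% of all tested genes rose. An unadjusted p under 0.05 was found for 3, beside 30.5% of all tested genes. The call of P2ry14 was lost without Bcl2l1-deleted replicate 1 or 2 or control replicate 4 (adjusted p up to 0.0894).

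Most members varied together over the 8 arrays once group means were subtracted. The controls weighed most in this: their member mean deviated from the group mean by 0.42, -0.48, 0.32 and -0.25 on replicates 1 to 4. On Bcl2l1-deleted replicates 1 to 4 it deviated by 0.04, 0.04, 0.11 and -0.19, and no correlation within a single genotype is given. After each group mean was subtracted, the median Pearson correlation over the 45 pairs of members was 0.63 over the 8 arrays and 0.55 without control replicate 2. These arrays share their background, so the correlations are descriptions and carry no test. P2ry12 and P2ry13 followed each other most closely (0.96, and 0.95 without control replicate 2), and P2ry12 also followed Selplg (0.90 and 0.88) and Gpr34 (0.86 and 0.84). Sall1 correlated with Tmem119 at 0.95 (0.73 without control replicate 2), but with P2ry12 at 0.17, and at -0.69 without that array. Against the mean of the other 9 members, Sall1 stood at 0.34 and Tmem119 at 0.61 over all arrays, and at -0.62 and -0.03 without control replicate 2, where the other 8 members ranged from 0.53 to 0.98.

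The control tumours differed more among themselves than the Bcl2l1-deleted tumours did. The standard deviation was larger in the controls for 9 of the 10 members, all but Siglech. The mean of the members was 6.40, 5.49, 6.29 and 5.72 on control replicates 1 to 4 and 6.83, 6.83, 6.90 and 6.60 on Bcl2l1-deleted replicates 1 to 4. Control replicates 2 and 4 were low, and within the controls each member was lowest on 1 of these 2 arrays, 6 on replicate 2 and 4 on replicate 4. Within the Bcl2l1-deleted group 7 members were lowest on replicate 4. The receptor median, a measure of background, moved against the mean of the members. With group means subtracted, their correlation was -0.84 over the 8 arrays and -0.84 without control replicate 2.

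With group means subtracted, the genes most like the mean of the members over the 8 arrays were P2ry6 (Pearson r = 0.99) and Cd68 (0.99). P2ry6 is the UDP receptor that triggers uptake by microglia, and it rose by 1.32 ± 0.25 (log2 ± SE, limma adjusted p = 0.0216). Cd68 encodes a lysosomal membrane protein of macrophages and rose by 1.23 ± 0.32 (log2 ± SE, limma adjusted p = 0.0466). Etfb, Vta1, Cpq, Tmem60, Atp6v1d, Stx18, Abi3 and Mfsd14a followed, with r from 0.98 to 0.99, and without control replicate 2 the r of all 10 lay between 0.968 and 0.990. Of these 8, Cpq (1.53 ± 0.35, log2 ± SE, limma adjusted p = 0.0337) and Abi3 (0.79 ± 0.19, adjusted p = 0.0393) rose as well. In the 8 fits with 1 array left out, P2ry6 kept its call in 5, Cpq in 3, and Cd68 and Abi3 in 2 each, and all 4 calls were lost in the fit adjusted for the receptor median (adjusted p = 0.0502 to 0.173). The other 6 did not pass, with changes between 0.24 for Vta1 and 0.83 for Tmem60. All 10 genes were chosen for having the highest r on these same arrays. Their high r, also without control replicate 2, therefore follows in part from that choice.

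Markers that microglia share with other brain macrophages were higher alongside the members. Of 18 tested genes of that list, 11 rose, 7 did not pass and none fell, while 17 had an unadjusted p under 0.05 (30.5% of all tested genes did). Their median relative change was 0.96, beside 0.75 for the members and 0 for all genes. Adgre1, the macrophage antigen F4/80, averaged 8.42 ± 0.10 after Bcl2l1 deletion and 7.01 ± 0.41 in controls (SD, n = 4 each; limma adjusted p = 0.0120). The protease gene Ctss rose by 1.25 ± 0.20 (log2 ± SE, limma adjusted p = 0.0140) and the sialic acid receptor gene Cd33 by 1.52 ± 0.27 (adjusted p = 0.0163). The count of 11 was 0, 1, 4 and 6 when Bcl2l1-deleted replicate 1, 2, 3 or 4 was left out and 16, 12, 9 and 2 when control replicate 1, 2, 3 or 4 was, and 4 in the fit adjusted for the receptor median. Cx3cr1 and Slc2a5, named after their values were seen because both are used as homeostatic markers, did not pass. The fractalkine receptor gene Cx3cr1 changed in value by 0.41 ± 0.17 (log2 ± SE, limma adjusted p = 0.137), and the fructose transporter gene Slc2a5 averaged 4.58 ± 0.22 after Bcl2l1 deletion and 4.60 ± 0.28 in controls (SD, n = 4 each).

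The members were also set against the mean of these 18 markers on the same array. The mean of the members minus the mean of the markers lay between -1.41 and -1.26 on the Bcl2l1-deleted arrays and at -1.23 or above on the controls, without overlap, with a difference of -0.20. This rested on Siglech: without it, a choice made after seeing the data, the values lay between -1.20 and -0.98 and between -1.13 and -0.90, the groups overlapped and the difference was -0.07. The values of Siglech itself overlapped between groups, and the marker mean was 1.01 higher after Bcl2l1 deletion. A gene with no change of its own therefore falls by that amount in this subtraction. With the control mean set to 0, the level of Siglech minus the marker mean was -1.33 ± 0.20 (SD, n = 4) after Bcl2l1 deletion, below all controls (-0.36 to 0.32). Tmem119 (-0.57 ± 0.16, SD, n = 4) and Olfml3 (-0.37 ± 0.22, SD, n = 4) were next, and their ranges overlapped those of the controls. P2ry12 (0.10), P2ry13 (0.16), Fcrls (0.16) and Aif1 (0.28) lay above 0 on this scale. In all, 6 of 10 members were below 0, and these differences are descriptions with no test.

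**Figure D3:**
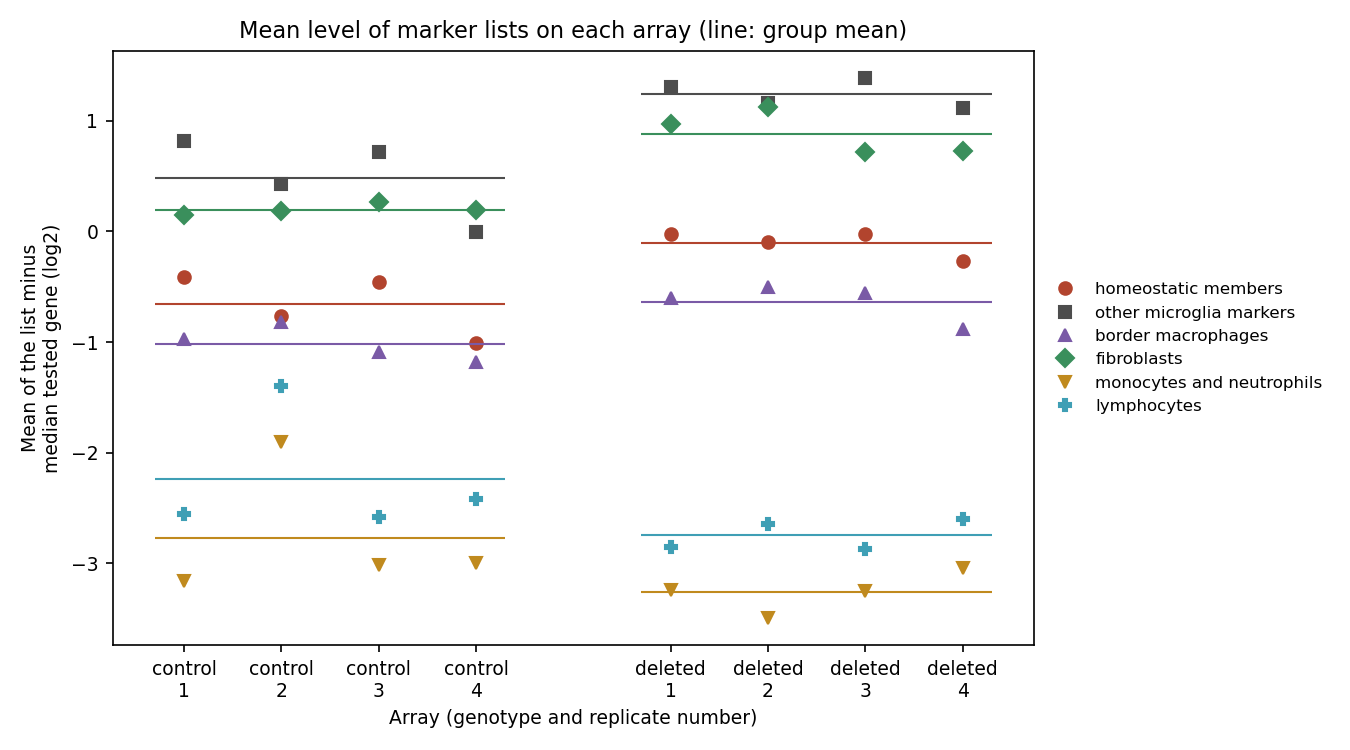
Mean log2 level of the homeostatic members and 5 other marker lists, minus the median tested gene of the same array (vertical axis), on each of the 8 arrays (horizontal axis), with group means as lines. The members lie at -0.41 or below on the controls and between -0.27 and -0.02 on the Bcl2l1-deleted arrays, and the other microglia markers between -0.01 and 0.82 and between 1.11 and 1.39.

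Transcription factors that make or keep the microglial state were measured by 6 tested genes. Irf8, required for microglia to mature, read 6.60, 6.50, 6.83 and 6.61 on Bcl2l1-deleted replicates 1 to 4 and 5.98, 5.50, 5.68 and 5.60 on control replicates 1 to 4. Spi1, which encodes PU.1, the master factor of the lineage, read 6.65, 6.25, 6.45 and 6.35 and then 5.58, 5.28, 5.67 and 5.67 on the same arrays. Neither gene overlapped between groups, where 19.0% of all tested genes lay wholly above on the Bcl2l1-deleted arrays. The controls of both genes were tighter than those of most members. Irf8 rose by 0.94 ± 0.16 (log2 ± SE, limma adjusted p = 0.0140), Spi1 by 0.88 ± 0.16 (adjusted p = 0.0174) and Runx1, a factor of blood and early microglia, by 0.78 ± 0.16 (adjusted p = 0.0238). These 3 of 6 rose and none fell, where 4.93% of all tested genes rose and 1.60% fell. An unadjusted p under 0.05 was found for 5, beside 30.5% of all tested genes, and 3 rose in the fit adjusted for the receptor median. Leaving out Bcl2l1-deleted replicate 1, 2, 3 or 4 gave 0, 0, 2 and 2, and leaving out control replicate 1, 2, 3 or 4 gave 3, 3, 3 and 2.

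Of 12 tested genes of TGF-beta signalling, the pathway that maintains homeostatic genes, 2 rose and none fell, and 3 had an unadjusted p under 0.05, a smaller share than the 30.5% of all tested genes. The ligand gene Tgfb1 rose by 0.95 ± 0.24 (log2 ± SE, limma adjusted p = 0.0430) and the receptor gene Tgfbr2 by 0.82 ± 0.21 (adjusted p = 0.0474). Nrros, which anchors latent TGF-beta on microglia, had a change of 0.57 ± 0.17 (log2 ± SE, limma adjusted p = 0.0641). The median relative change of the list was 0.05, near that of all genes. Both calls were lost with the receptor median as a covariate (adjusted p = 0.115 and 0.165) and without any 1 of the Bcl2l1-deleted arrays or control replicate 4 (adjusted p up to 0.132), and that of Tgfbr2 also without control replicate 3.

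Of 8 tested genes of purine sensing and breakdown, the pathway of P2ry12 and P2ry13, 4 rose (P2ry6, P2ry14, P2rx4 and Entpd1) and none fell, where 4.93% of all tested genes rose. In all 8 the Bcl2l1-deleted arrays lay above the controls, as for 19.0% of all tested genes, and all 8 had an unadjusted p under 0.05 (30.5%). Adora3, an adenosine receptor gene below the dim filter, overlapped between groups, at means of 4.25 and 4.20. The ATP-gated channel gene P2rx4 rose by 0.89 ± 0.17 (log2 ± SE, limma adjusted p = 0.0211). The ectonucleotidase gene Entpd1, which encodes CD39 and degrades the ATP and ADP that these receptors sense, averaged 7.13 ± 0.11 after Bcl2l1 deletion and 6.33 ± 0.32 in controls (SD, n = 4 each; limma adjusted p = 0.0315). The count of 4 was 0, 0, 3 and 3 when Bcl2l1-deleted replicate 1, 2, 3 or 4 was left out and 5, 7, 4 and 0 when control replicate 1, 2, 3 or 4 was, and 1 in the fit adjusted for the receptor median.

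Of 14 tested genes of activated, phagocytic microglia, 3 rose, none fell and 11 did not pass, 5 had an unadjusted p under 0.05 (30.5% of all tested genes did), and the median relative change was 0.11. Igf1, a growth factor of activated microglia, rose by 1.37 ± 0.20 (log2 ± SE, limma adjusted p = 0.0120), the chemokine gene Ccl3 by 1.80 ± 0.35 (adjusted p = 0.0218) and Gpnmb, a glycoprotein of lipid-laden macrophages, by 1.09 ± 0.27 (adjusted p = 0.0415). The count was 0, 1, 2 and 2 when Bcl2l1-deleted replicate 1, 2, 3 or 4 was left out and 5, 4, 2 and 1 when control replicate 1, 2, 3 or 4 was, and 1 in the fit adjusted for the receptor median. When control replicate 1 was left out, Ccl4, another chemokine gene, was called lower. No test compared this list with the homeostatic one.

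Some markers of other cell types moved with the genotype too, and their part in the members' values was not tested. Of all tested genes, 4.93% rose and 1.60% fell. Of 10 border macrophage markers, cells of the meninges and vessels that also express Aif1, 3 rose and none fell. They were Stab1 (1.12 ± 0.17, log2 ± SE, limma adjusted p = 0.0120), Ms4a7 (2.00 ± 0.27, adjusted p = 0.00998) and Mrc1 (1.42 ± 0.22, adjusted p = 0.0140), and 3 of the 10 were called in the fit adjusted for the receptor median. Leaving out Bcl2l1-deleted replicate 1 or 2 gave 0 and 1. Of the 10, 5 had an unadjusted p under 0.05 (30.5% of all tested genes did). The relative changes of the list ran from -0.23 to 1.83 with a median of 0.27, and 7 were positive. The mean of the border list lay between 5.99 and 6.42 on the Bcl2l1-deleted arrays and between 5.43 and 5.84 on the controls. Of 8 fibroblast markers, cells that can also secrete OLFML3, 4 rose, with Ogn (1.79 ± 0.24, log2 ± SE, limma adjusted p = 0.00884) and Dcn (1.65 ± 0.25, adjusted p = 0.0139) foremost, then Slc6a13 (1.22 ± 0.28, adjusted p = 0.0347). That count was 1 without Bcl2l1-deleted replicate 1 or 2 and 2 without Bcl2l1-deleted replicate 3, without control replicate 3 or 4, and in the fit adjusted for the receptor median. The mean of the fibroblast list lay between 7.60 and 8.05 and between 6.44 and 7.01 on the same groups. Of the 8 fibroblast markers, 6 had an unadjusted p under 0.05, and the median relative change was 0.74.

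Markers of blood leukocytes, which also express Selplg, were dim. Of 9 measured monocyte and neutrophil markers 8 lay below the dim filter, and the mean of the list was 3.43 to 3.83 on the Bcl2l1-deleted arrays and 3.65 to 4.36 on the controls. Of 7 measured lymphocyte markers 4 lay below the filter, and their mean was 4.01 to 4.28 and 4.16 to 4.86. Of 5 plasmacytoid dendritic cell markers, listed because these cells express Siglech, 2 lay below the filter and the mean was 4.32 to 4.76 and 4.65 to 5.24. No tested gene of these lists was called by limma in either direction, and at an unadjusted p under 0.05 the counts were 0 of 1, 0 of 3 and 1 of 3, the last one, Pacsin1, lower in value (-0.68, adjusted p = 0.0779). Pacsin1 was called lower with quantile normalization, with arrays centred on the median tested gene, in the fit adjusted for the receptor median, with array weights and without control replicate 2. It was the brightest of the 5, averaging 6.04 after Bcl2l1 deletion and 6.73 in controls. Which cells of the tissue gave its signal was not tested, so its values are no measure of plasmacytoid dendritic cells. None of 9 tested granule progenitor tumour markers was called either, with 1 at an unadjusted p under 0.05, beside 30.5% of all tested genes.

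**Figure D4:**
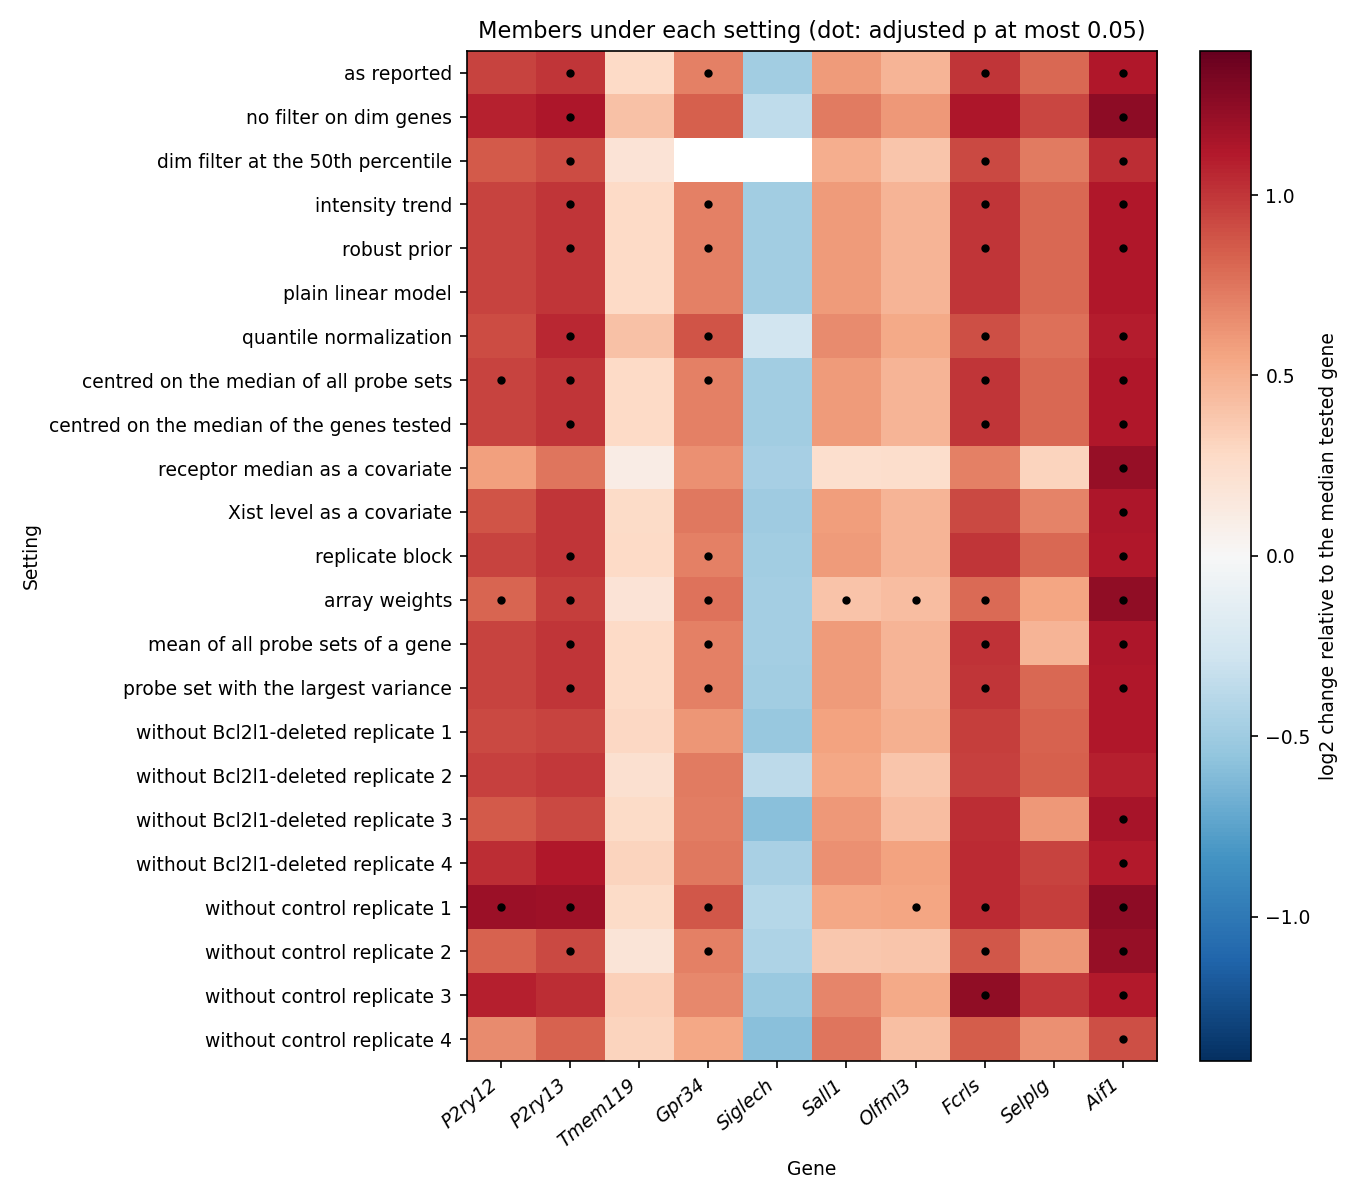
Log2 change relative to the median tested gene (colour) of the 10 members (columns) as reported and under 22 other settings (rows), with a dot where the adjusted p was at most 0.05 and white where the gene was not tested. The relative change of Siglech is negative and that of the other 9 members positive in every setting shown, while dots are present in 19 of 22 settings for Aif1, 13 for P2ry13, 12 for Fcrls and 10 of 21 for Gpr34.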

How the data were processed

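Total RNA of 8 medulloblastomas, 4 Bcl2l1-deleted and 4 control, was hybridised to 1 Affymetrix whole-transcript array each. The authors deposited log2 values that, per the labels, are RMA values made with Partek software. Its version and settings, and the build behind the array, were not given in the sources used here. RMA corrects background, normalizes and summarises probes, and it compresses differences of dim probe sets. The number of arrays limits the precision.

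Groups came from titles, which match the genotype field. A status field for Bcl2l1 that calls every sample deleted, controls too, was left aside.

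Of 41345 probe sets, the platform annotation gives 23521 a single symbol, 1814 several and 16010 none. RefSeq (GRCm38.p6) matched 23328 by identifier and changed 0 symbols. Each gene kept its probe set of highest mean, and the dim filter (30th percentile) removed 6654 of 22180 genes. The model was limma 3.58.1 under R 4.3.3: lmFit and eBayes, two-sided, Bcl2l1-deleted minus control, no covariate, Benjamini-Hochberg over 15526 genes, threshold 0.05. The model was also run on simulated data for this comparison with 15526 genes. There it found 94.0% of 100 genes shifted by 2 (log2) and 53.0% of 100 shifted by 1, with 8 false calls. Whether these rates hold on the measured arrays, which differ in background, was not tested.

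The members, the 13 gene lists and the tests were chosen with earlier results of these data known. Named genes were the members, Bcl2l1, up to 3 genes with the smallest p in each other list (any gene of a list with at most 5 tested or called), and the 10 genes most correlated with the member mean after group means were subtracted (no predicted genes, small RNAs or chemosensory receptors). Lists with no called gene are given by levels and counts. Cx3cr1, Slc2a5 and Ttr were named after their values were seen. Alternatives were other dim filters, priors, scalings, covariates, a replicate block, array weights, other probe set choices and leaving out each array.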

Additional observations from a re-analysis of the deposited data

Results flagged for a closer look

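Among 88 groups of 4 arrays (44 of the genes named here, in both genotypes), 1 value was set apart by a gap to its nearest neighbour above Dixon's 95% critical value for 4 samples. The remaining genes named in the text were not part of this screen. Gpr34 read 5.91 on Bcl2l1-deleted replicate 1, where the other 3 Bcl2l1-deleted arrays read 5.55 to 5.61, a gap of 0.849 of the range. Chance sets apart about 1 in 20 groups. Without that array the change of Gpr34 was 0.79 in place of 0.87 (limma adjusted p = 0.138).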

How the results depend on the processing

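Each member kept the sign of its change in all settings in which it was tested, and none was called lower. The count of members that rose, 4 as reported, was 2 with no filter on dim genes and 0 with a plain linear model. In that model 6 members had an unadjusted p under 0.05, beside 25.4% of all tested genes. The count was 1 with the receptor median and 1 with the Xist level, a marker of sex, as covariates. With array weights 7 members rose, beside 15.7% of all tested genes. With 1 array left out the count was 0 to 6. In both cases of 0, without Bcl2l1-deleted replicate 1 or 2, 8 members had an unadjusted p under 0.05. Of all tested genes, 21.7% and 21.9% did in these 2 fits. Of all genes, 1013 were called as reported, 548 with no filter, 43 with a plain linear model, 200 with the Xist level, 3494 with array weights, and 20 to 2100 with 1 array left out. Adjusting for the receptor median gave 273 higher and 404 lower calls. Xist read 10.54, 9.89, 4.53 and 10.33 on control replicates 1 to 4. On Bcl2l1-deleted replicates 1 to 4 it read 10.08, 9.63, 4.91 and 4.70, so by this marker the groups were not balanced for sex. The labels name no pairing of arrays. Correlations of the deviations of same-numbered arrays were -0.135 to 0.0526, which cannot exclude a shared litter or batch. A replicate block gave 508 called genes and 3 members. Vta1, uncalled, turned to -0.0200 with arrays centred on the median tested gene and to -0.0637 with the receptor median as covariate. The difference in the receptor median, -0.29, was -0.363 to -0.142 with 1 array left out. The exact permutation p was 0.0857 to 0.143 without 1 Bcl2l1-deleted array and 0.0286 without 1 control array. The cause of these shifts was not tested.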
